A study of Homo sapiens with 12 samples.

Results

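The mRNA of 10 amino acid transporter genes was followed in ovarian cancer cells treated with BAY-850, a small molecule that inhibits ATAD2, a chromatin protein with a bromodomain. The 10 genes, SLC7A11, SLC7A5, SLC3A2, SLC7A1, SLC1A5, SLC1A4, SLC38A1, SLC38A2, SLC6A9 and SLC43A1, were found by symbol among the 26475 genes of the deposited table, and all 10 had a value in each of the 12 libraries and passed the filter on low counts in both cell lines. PA-1 cells, a line from an ovarian teratocarcinoma, and SK-OV-3 cells, a line from an ovarian adenocarcinoma, each received DMSO (the vehicle) or BAY-850 at 5 µM, for 48 h in the treated groups. The 4 groups are therefore PA-1 with DMSO, PA-1 with BAY-850, SK-OV-3 with DMSO and SK-OV-3 with BAY-850, with 3 replicates in each, described as biological replicates. Each line stands for 1 tumour and no genetic change was introduced in any group. PA-1 cells were grown in DMEM and SK-OV-3 cells in RPMI, so that cell line and medium, and the amino acids in it, cannot be told apart in any comparison between the lines.

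The total expected count was 34544505 to 51840233 per library, and ribosomal RNA genes took 7.94% to 16.9% of it. In 11 libraries 17425 to 18414 genes had a count, and 15629 had one in replicate 3 of SK-OV-3 with BAY-850, which had the highest total, so the responses of the 10 genes in SK-OV-3 are also given without it. The pluripotency genes chosen as markers of PA-1 (among them SOX2, NANOG and LIN28A) summed to 1370 to 1650 CPM (counts scaled to a common library size, here with TMM factors) in PA-1 libraries, with 7 of 8 at 1 CPM or more (all but L1TD1), and to 6.49 to 10.4 CPM in SK-OV-3 libraries. All 8 epithelial markers of SK-OV-3 reached 1 CPM in SK-OV-3, where they summed to 4140 to 4450 CPM with DMSO and 2900 to 3370 CPM with BAY-850. In PA-1, 5 of 8 reached it and the 8 summed to 926 to 1060 CPM. With DMSO, 7 of the 8 had the higher level in SK-OV-3, and KRT18 the lower (means of 266 CPM, and 335 CPM in PA-1). KRT8 was at means of 599 and 532 CPM. The 5 leukocyte markers summed to at most 1.24 CPM in any library.

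Amino acids enter cells through carriers of the solute carrier (SLC) families. SLC7A5 (LAT1) and SLC7A11 (xCT) are light chains that each pair with the heavy chain SLC3A2 (4F2hc, CD98): the SLC7A5 pair brings in large neutral amino acids such as leucine in exchange for intracellular ones. The SLC7A11 pair brings in cystine, the oxidised form of cysteine, in exchange for glutamate and so feeds glutathione synthesis. SLC1A5 (ASCT2) and SLC1A4 (ASCT1) exchange small neutral amino acids, with glutamine carried by SLC1A5, while SLC38A1 (SNAT1) and SLC38A2 (SNAT2) draw glutamine and other neutral amino acids in with sodium. SLC7A1 (CAT1) carries arginine and lysine, SLC6A9 (GlyT1) glycine, and SLC43A1 (LAT3) branched-chain amino acids. Many of these genes are known targets of ATF4, the transcription factor that is translated when amino acids are scarce or the endoplasmic reticulum is stressed.

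The genes lie on 8 chromosomes in the GENCODE release 29 annotation of GRCh38, and all 10 are protein-coding. SLC3A2 (chr11:62856102-62888875, plus strand) and SLC43A1 (chr11:57484534-57515786, minus strand) share chromosome 11, and SLC38A1 (chr12:46183063-46270017) and SLC38A2 (chr12:46358189-46372867) are neighbours on the minus strand of chromosome 12. SLC7A11 (chr4:138164097-138242349), SLC7A5 (chr16:87830023-87869488), SLC7A1 (chr13:29509410-29595688), SLC1A5 (chr19:46774883-46788594) and SLC6A9 (chr1:43991500-44031467) are on the minus strand, and SLC1A4 (chr2:64988477-65023865) is on the plus strand. The 250 bases before the transcript start were found in RefSeq (GRCh38.p14) for 9 of the 10 genes, all but SLC7A11, and were searched on both strands for 3 short motifs. The first listed start of each gene was used. For SLC3A2 (window chr11:62881449-62881698) and SLC38A1 (window chr12:46266517-46266766) the whole window lies inside the gene span given above. Part of the window does so for SLC38A2 (chr12:46372774-46373023), SLC43A1 (chr11:57515703-57515952), SLC6A9 (chr1:44031463-44031712) and SLC1A4 (chr2:64988229-64988478). The amino acid response element bound by ATF4 (TGATGNAA) was in none of the 9 windows and in 3.19% of all 27305 windows of this length. The antioxidant response element bound by NRF2 (TGACNNNGC) was in 2 of 9, SLC3A2 (TGACTCAGC, 37 to 29 bases before the start) and SLC7A1, against 11.03% of all windows, and the CCAAT box was in 2 of 9, SLC7A1 and SLC1A5, against 33.0%. A match is a run of letters and not a measured binding site. Sequence outside these windows, such as introns, transcribed ends and other starts, was not searched. A motif that is not in a window may thus still be in the gene. The windows of SLC1A5, the member with the lowest adjusted p for a difference in response between the lines, and SLC7A1, which held matches to 2 motifs, are printed 5′ to 3′ on the minus strand with the matches in capitals.

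SLC1A5 (chr19:46788595-46788844): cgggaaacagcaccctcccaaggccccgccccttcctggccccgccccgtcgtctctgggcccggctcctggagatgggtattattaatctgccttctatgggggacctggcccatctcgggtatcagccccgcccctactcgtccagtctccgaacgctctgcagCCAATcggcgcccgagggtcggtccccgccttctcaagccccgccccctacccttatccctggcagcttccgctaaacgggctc
SLC7A1 (chr13:29595689-29595938): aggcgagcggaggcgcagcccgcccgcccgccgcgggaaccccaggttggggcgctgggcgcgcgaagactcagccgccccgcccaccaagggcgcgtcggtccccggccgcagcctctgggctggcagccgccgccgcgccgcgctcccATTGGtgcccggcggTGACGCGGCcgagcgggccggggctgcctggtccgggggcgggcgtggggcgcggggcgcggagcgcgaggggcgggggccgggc

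The capitals in the SLC1A5 window are a CCAAT box 84 to 80 bases before the start. In the SLC7A1 window they are a CCAAT box on the other strand, read as ATTGG, 100 to 96 bases before the start, and an antioxidant response element, TGACGCGGC, 85 to 77 bases before it. No factor binding was measured in these libraries.

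Between genes, levels were compared as TMM-normalized CPM per kilobase of exon (CPM per kb). SLC3A2, the shared heavy chain, was highest in all 4 groups, at 231 ± 11.4 CPM per kb (SD, n = 3, as for all levels below) in PA-1 with DMSO, 229 ± 9.56 in PA-1 with BAY-850, 177 ± 7.46 in SK-OV-3 with DMSO and 211 ± 21.8 in SK-OV-3 with BAY-850. In PA-1 with DMSO it was followed by SLC1A5 (92.7 ± 3.47), SLC7A5 (71.3 ± 2.12), SLC38A2 (63.2 ± 2.54), SLC7A11 (23.7 ± 0.608), SLC7A1 (18.7 ± 0.762) and SLC38A1 (15.8 ± 0.142), each above the next in every library. SLC1A4 (3.71 ± 0.268), SLC6A9 (3.66 ± 0.506) and SLC43A1 (2.93 ± 0.450) came last with overlapping values. The order was the same in PA-1 with BAY-850, except that SLC7A11 (21.1 ± 1.09) and SLC7A1 (19.9 ± 1.04) overlapped there and that SLC43A1 (2.84 ± 0.128) lay below SLC6A9 in every library.

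In SK-OV-3 with DMSO the glutamine carrier SLC1A5 was not second. SLC7A5 (93.7 ± 1.79 CPM per kb) and SLC38A2 (45.5 ± 2.77) came next after SLC3A2, and SLC7A11 (25.4 ± 2.13), SLC7A1 (23.8 ± 1.26) and SLC1A5 (23.2 ± 0.979) overlapped with each other. SLC38A1 (18 ± 1.2) and SLC1A4 (3.66 ± 0.145) were below them, and SLC6A9 (0.731 ± 0.0746) and SLC43A1 (0.652 ± 0.158) overlapped at the bottom. With BAY-850, SLC1A5 came next after SLC38A2, at 42.6 ± 1.24 CPM per kb, above SLC7A1 (24.1 ± 0.332) in every library, while SLC38A1 (21.8 ± 0.417) and SLC7A11 (21.4 ± 0.338) overlapped. With the longest transcript as the length, SLC1A5 came next after SLC38A2 in SK-OV-3 with DMSO as well, and SLC6A9 was above SLC1A4 in PA-1.

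**Figure D1:**
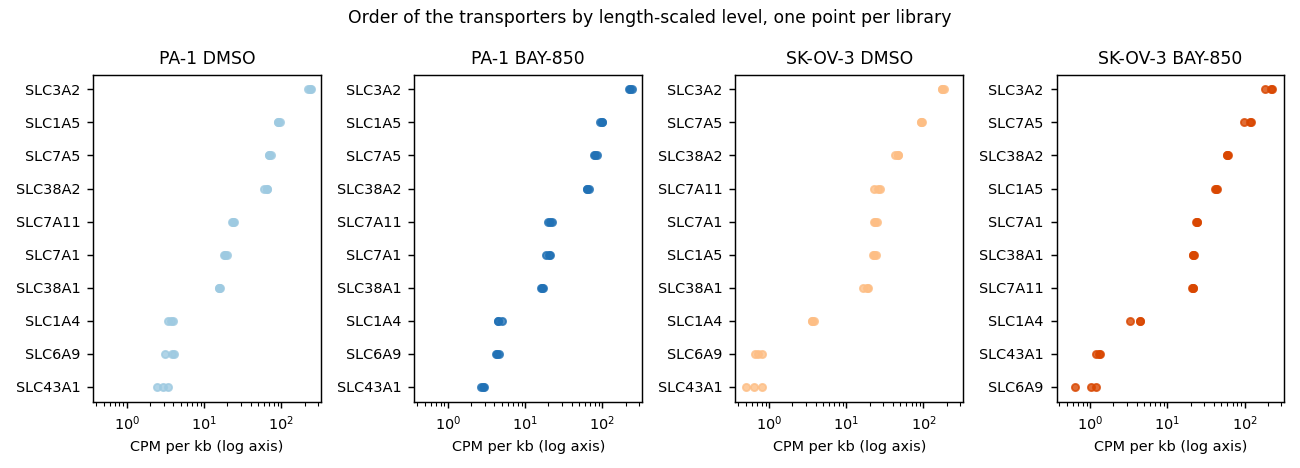
Level of each of the 10 genes in each group, in TMM-normalized CPM per kilobase of exon on a log axis, with 1 point per library and the genes ordered by their mean in that group. SLC3A2 is highest in every group (means of 177 to 231 CPM per kb), and the mean of SLC1A5 is 92.7 CPM per kb in PA-1 with DMSO and 23.2 in SK-OV-3 with DMSO.

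The first comparison asked how the lines differed without the inhibitor. With DMSO, 3 of the 10 genes were higher in SK-OV-3 than in PA-1 (SLC7A5, SLC7A1 and SLC38A1), 5 were lower (SLC3A2, SLC1A5, SLC38A2, SLC6A9 and SLC43A1), and SLC7A11 and SLC1A4 did not pass the test, an adjusted p under 0.05 by edgeR's quasi-likelihood F-test, adjusted by Benjamini-Hochberg over 16070 genes. Of all genes tested, 40.1% were higher and 40.2% lower, 80.3% in all, so the share of members that passed was near that of all genes. The median log2 difference, SK-OV-3 minus PA-1, was -0.21 over the 10 genes and 0.0019 over all genes tested. As these are bulk RNA measurements, fewer cells that express a gene and less of its RNA per cell cannot be told apart.

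The libraries of the lines did not overlap for these 3 and 5 genes, with 41.1% of all genes tested higher and 41.2% lower without overlap (82.3% in all). The 3 largest differences were all lower in SK-OV-3. The glycine carrier SLC6A9 stood at 13.3, 17.5 and 16.5 CPM in PA-1 and 3.12, 3.49 and 2.85 CPM in SK-OV-3, a log2 difference of -2.33 ± 0.16 (SE) with an adjusted p of 1.96e-08. Every SK-OV-3 library was below every PA-1 library, as it was for SLC43A1 and SLC1A5. SLC43A1, the branched-chain carrier, was at 9.14, 7.92 and 6.71 CPM and 1.74, 1.35 and 2.20 CPM, a log2 difference of -2.17 ± 0.22 (SE) with an adjusted p of 1.42e-06, and SLC1A5 at 322, 306 and 299 CPM and 77.0, 74.5 and 80.9 CPM, a log2 difference of -2.00 ± 0.057 (SE) with an adjusted p of 4.91e-12. SLC1A5 mRNA in SK-OV-3 was thus 0.250 of its level in PA-1. The other 5 genes that passed differed by less: SLC38A2 by -0.48 ± 0.059 (SE) and SLC3A2 by -0.39 ± 0.055 (SE) on the log2 scale, both lower in SK-OV-3, and SLC7A5 by 0.39 ± 0.049 (SE), SLC7A1 by 0.34 ± 0.058 (SE) and SLC38A1 by 0.18 ± 0.058 (SE), all higher, with adjusted p of 9.08e-06 to 0.0116. SLC38A1 did not pass without replicate 3 of SK-OV-3 with DMSO (0.15, adjusted p = 0.0505) or with each library's trend on GC content removed (0.0999, adjusted p = 0.0719). SLC7A11 (0.092 ± 0.063 (SE), adjusted p = 0.196) and SLC1A4 (-0.022 ± 0.096 (SE), adjusted p = 0.838) overlapped between the lines, and SLC7A11 passed with the GC trend removed (0.13, adjusted p = 0.0312) and without replicate 1 of SK-OV-3 with DMSO (0.16, adjusted p = 0.0146).

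The second question was how the transporters responded to BAY-850 in each line. In PA-1, SLC7A5 and SLC1A4 rose and no member fell, while among the 15212 genes tested 4.65% rose and 2.48% fell (7.13% in all). In SK-OV-3, SLC7A5, SLC3A2, SLC1A5, SLC38A1, SLC38A2 and SLC43A1 rose and SLC7A11 fell, while among the 15348 genes tested 10.8% rose and 9.56% fell (20.4% in all). The median log2 fold change of the 10 genes was 0.065 in PA-1 and 0.28 in SK-OV-3, beside -0.0019 and -0.0091 over all genes tested. The replicates did not overlap between treatments for 5 members in PA-1 (4 higher and 1 lower, with 14.1% and 13.3% of all genes tested, 27.5% in all) and for 6 members in SK-OV-3 (5 higher and 1 lower, with 18.1% and 20.5%, 38.6% in all). The summed level of the 10 genes was 2092 to 2139 CPM with DMSO and 2154 to 2191 CPM with BAY-850 in PA-1, and 1773 to 1858 CPM and 2008 to 2206 CPM in SK-OV-3, without overlap in either line. The PA-1 ranges lay close together, and the sums depend on the TMM factors, which ran from 0.917 to 1.02 in the PA-1 libraries. The sums were not tested. Without replicate 3 of SK-OV-3 with BAY-850, the same counts were 6 higher and 1 lower and the median was 0.31.

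**Figure D2:**
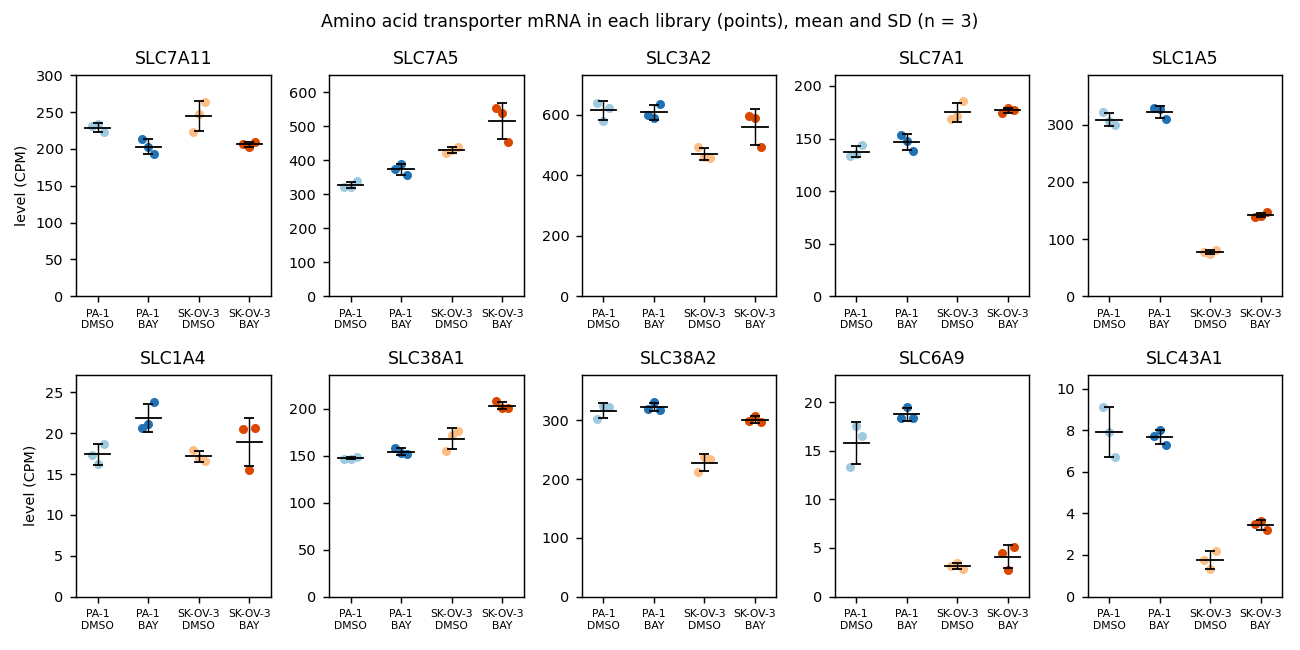
TMM-normalized CPM of each of the 10 genes in each of the 12 libraries (points), with the mean and SD of the 3 libraries of a group (bars) and axes that start at 0. SLC1A5 is at 74.5 to 80.9 CPM in SK-OV-3 with DMSO and at 139 to 147 CPM with BAY-850, with no overlap, while its PA-1 values overlap between treatments.

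Of the glutamine and small neutral amino acid carriers, SLC1A5 had the highest fold change in SK-OV-3. It stood at 77.0, 74.5 and 80.9 CPM with DMSO against 139, 140.1 and 147 CPM with the inhibitor. The treated libraries were all above the controls, 1.85-fold in the fit, a log2 fold change of 0.89 ± 0.059 (SE) with an adjusted p of 1.83e-06 by edgeR's quasi-likelihood F-test, adjusted by Benjamini-Hochberg (0.85 and 5.19e-07 without replicate 3 of SK-OV-3 with BAY-850). In PA-1 it was at 322, 306 and 299 CPM and 329, 328 and 309 CPM. These values overlapped, with a log2 fold change of 0.063 ± 0.054 (SE) and an adjusted p of 0.522, and the fold change was negative (-0.046) once each library's trend on GC content was removed. Although SLC1A5 rose in SK-OV-3, its treated level of 142 ± 4.14 CPM remained below every PA-1 library.

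SLC38A2 and SLC38A1, the sodium-coupled neutral amino acid carriers, also rose in SK-OV-3. SLC38A2 stood at 212, 237 and 235 CPM with DMSO against 299, 308 and 298 CPM with the inhibitor, and SLC38A1 at 155, 172 and 177 CPM and 208, 201 and 201 CPM. Neither gene's groups overlapped, and the log2 fold changes were 0.42 ± 0.054 (SE) for SLC38A2 (adjusted p = 2.73e-04) and 0.29 ± 0.057 (SE) for SLC38A1 (adjusted p = 0.00438), with 0.41 and 0.29 when replicate 3 of the treated cells was left out. In PA-1, SLC38A2 was at 302, 325 and 323 CPM and 319.7, 331 and 318 CPM, which overlapped, and SLC38A1 at 147, 147 and 149 CPM and 158, 153 and 152 CPM, which did not. The log2 fold changes there were 0.030 ± 0.053 (SE) (adjusted p = 0.791) and 0.068 ± 0.053 (SE) (adjusted p = 0.472), and neither passed the test. SLC1A4, the small neutral amino acid exchanger related to SLC1A5, passed in PA-1 only. SLC1A4 did not pass the interaction test of line and treatment given below (-0.19 ± 0.16 (SE), adjusted p = 0.489). It was at 17.3, 16.2 and 18.7 CPM with DMSO against 20.6, 21.1 and 23.8 CPM with the inhibitor in PA-1, where the groups did not overlap and the log2 fold change was 0.33 ± 0.093 (SE) (adjusted p = 0.0452). This call was lost under 9 of 17 alternatives. In SK-OV-3, SLC1A4 was at 17.9, 16.9 and 16.6 CPM and 20.5, 15.5 and 20.7 CPM, with replicate 2 of the treated cells below all controls and a log2 fold change of 0.15 ± 0.13 (SE) (adjusted p = 0.443), or 0.067 (adjusted p = 0.737) without replicate 3 of the treated cells.

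The heavy chain SLC3A2 and its leucine-carrying light chain SLC7A5 rose in SK-OV-3. SLC3A2 stood at 493, 461 and 456 CPM with DMSO against 597, 588 and 492 CPM with the inhibitor, and SLC7A5 at 422, 429.9 and 438 CPM and 554, 539.8 and 455 CPM. For both genes replicate 3 of the treated cells was the lowest of its group, which put SLC3A2 in that library just under the highest control and left SLC7A5 above all controls. The log2 fold changes were 0.26 ± 0.065 (SE) for SLC3A2 (adjusted p = 0.0150) and 0.28 ± 0.061 (SE) for SLC7A5 (adjusted p = 0.00861), and 0.33 and 0.35 without that library. The SLC3A2 call was lost when replicate 2 or 3 with DMSO or replicate 1 or 2 with BAY-850 was left out, with adjusted p of 0.0653 to 0.0762. In PA-1, SLC7A5 was at 321, 322 and 338 CPM with DMSO against 373, 388 and 358 CPM with the inhibitor, without overlap, and SLC3A2 at 639, 580.4 and 622 CPM and 597, 589 and 636 CPM, with overlap. SLC7A5 passed the test there with a log2 fold change of 0.19 ± 0.053 (SE) (adjusted p = 0.0444), a call lost under 9 of 17 alternatives, and SLC3A2 did not (-0.013 ± 0.056 (SE), adjusted p = 0.919). The copies SLC7A5P1 and SLC7A5P2 are annotated as pseudogenes, with 537 and 536 bases of exon against 4587 for SLC7A5. Without scaling for length, they took 0.474% to 1.99% of the counts of SLC7A5 and its copies together. This is the share after RSEM divided the reads, and how many reads they share was not measured. The SLC7A5 calls in both lines were kept when its counts were summed with those of the copies.

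SLC7A11, the cystine carrier, was the 1 member that fell in SK-OV-3. It stood at 223, 247 and 264 CPM with DMSO against 207, 203 and 209 CPM with the inhibitor. All treated libraries were below all controls, and the log2 level fell by 0.23 ± 0.062 (SE) (adjusted p = 0.0224), or by 0.25 (adjusted p = 0.0142) without replicate 3 of the treated cells. In PA-1, SLC7A11 was at 231, 234 and 222 CPM and 214, 203 and 193 CPM, again without overlap and lower with BAY-850, but the log2 fold change of -0.17 ± 0.056 (SE) did not pass (adjusted p = 0.0803). SLC7A11 has the lowest GC content of the 10 genes (35.4%), and with each library's trend on GC content removed the log2 fold changes were -0.14 in SK-OV-3 (adjusted p = 0.113) and -0.025 in PA-1 (adjusted p = 0.828). The SK-OV-3 call was lost under 6 of 17 alternatives, namely this one, scaling by library size only (adjusted p = 0.0580), and leaving out replicate 2 or 3 with DMSO or replicate 1 or 2 with BAY-850 (adjusted p of 0.0655 to 0.123). The antisense gene SLC7A11-AS1 had 0.0377% to 0.389% of the counts of SLC7A11.

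The remaining carriers were SLC43A1, SLC6A9 and SLC7A1. SLC43A1, the branched-chain amino acid carrier, stood at 1.74, 1.35 and 2.20 CPM with DMSO against 3.49, 3.65 and 3.20 CPM with the inhibitor in SK-OV-3. The groups did not overlap and the fit gave a 1.97-fold rise, a log2 fold change of 0.98 ± 0.28 (SE) (adjusted p = 0.0290; 1.02 and 0.0139 without replicate 3 of the treated cells), with the widest error of the members that passed. At this low level the call was lost with the replicate number as a block (adjusted p = 0.0582) and when replicate 1 or 2 of either treatment was left out (adjusted p of 0.0738 to 0.120). In PA-1 it was at 9.14, 7.92 and 6.71 CPM and 7.74, 8.004 and 7.32 CPM, which overlapped (-0.041 ± 0.14 (SE) on the log2 scale, adjusted p = 0.896). The glycine carrier SLC6A9 passed in neither line. It was at 13.3, 17.5 and 16.5 CPM and 18.3, 19.5 and 18.4 CPM in PA-1, with the treated libraries above the controls (0.25 ± 0.11 (SE), adjusted p = 0.171), and at 3.12, 3.49 and 2.85 CPM and 4.45, 2.75 and 5.08 CPM in SK-OV-3, with replicate 2 of the treated cells below every control (0.40 ± 0.27 (SE), adjusted p = 0.337, or 0.19 and 0.613 without replicate 3 of the treated cells). SLC7A1, the arginine and lysine carrier, passed in neither line either. It stood at 134, 135 and 144 CPM with DMSO against 153, 148 and 138 CPM with the inhibitor in PA-1 and at 168, 171 and 186 CPM and 174, 179 and 177 CPM in SK-OV-3, with overlap in both and log2 fold changes of 0.092 ± 0.059 (SE) (adjusted p = 0.378) and 0.028 ± 0.053 (SE) (adjusted p = 0.760, or 0.014 and 0.883 without that library).

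**Figure D3:**
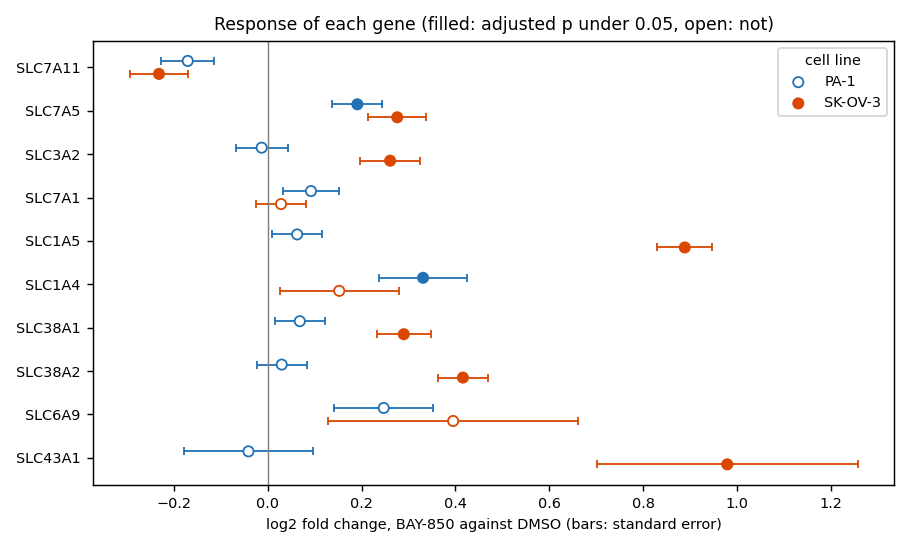
Log2 fold change of each of the 10 genes, BAY-850 against DMSO, in PA-1 and in SK-OV-3, with its SE from edgeR's quasi-likelihood fit and filled points for an adjusted p under 0.05. The SK-OV-3 values of SLC1A5 (0.89) and SLC43A1 (0.98) are the highest, with SLC7A11 (-0.23) the only filled point below 0.

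Whether a response differed between the lines was tested with the interaction of line and treatment over all 12 libraries, SK-OV-3 minus PA-1. It passed for 3 members, SLC1A5, SLC38A2 and SLC43A1, all with the higher response in SK-OV-3, while 6.70% of the 16830 genes tested had a higher and 7.77% a lower response there (14.5% in all). The differences in log2 response were 0.81 ± 0.072 (SE) for SLC1A5 (adjusted p = 2.80e-06), 0.37 ± 0.073 (SE) for SLC38A2 (adjusted p = 0.00299) and 1.01 ± 0.28 (SE) for SLC43A1 (adjusted p = 0.0259). The median difference of the 10 genes was 0.17, beside -0.020 over all genes tested. The SLC1A5 and SLC38A2 calls held under all 22 alternatives run, and that of SLC43A1 was lost under 7. For SLC3A2 the difference was 0.26 ± 0.095 (SE) (adjusted p = 0.0780), and it passed in 6 alternatives, among them without replicate 3 of SK-OV-3 with BAY-850 (0.35, adjusted p = 0.00552). SLC38A1 (0.21 ± 0.073 (SE), adjusted p = 0.0689) passed in 4 alternatives. SLC7A11 (-0.073 ± 0.084 (SE), adjusted p = 0.625) and SLC7A5 (0.075 ± 0.090 (SE), adjusted p = 0.642), each past the threshold in 1 line or both, did not pass this test, and neither did SLC1A4 (-0.19 ± 0.16 (SE), adjusted p = 0.489), SLC6A9 (0.13 ± 0.27 (SE), adjusted p = 0.803) or SLC7A1 (-0.076 ± 0.078 (SE), adjusted p = 0.578). Without replicate 3 of SK-OV-3 with BAY-850, 4 members passed (SLC1A5 at 0.79, SLC38A2 at 0.38, SLC43A1 at 1.06 and SLC3A2), and the differences of SLC7A5 (0.16), SLC1A4 (-0.26) and SLC6A9 (-0.057) did not.

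Because SLC7A11 and SLC7A5 share the heavy chain SLC3A2, each light chain was also set against it within a library, as a ratio of CPM per kb. In SK-OV-3 the SLC7A11 to SLC3A2 ratio was 0.124, 0.147 and 0.159 with DMSO and 0.0956, 0.0949 and 0.117 with BAY-850. The treated ratios were all below the controls, with a log2 difference of -0.49 (two-sided exact permutation test, p = 0.1, adjusted p = 0.2 over 10 ratios), or -0.59 without replicate 3 of the treated cells. With 3 libraries against 3, p = 0.1 is the smallest this exact test can give, so it cannot reach 0.05. In PA-1 the same ratio was 0.0993, 0.111 and 0.0984 with DMSO and 0.0986, 0.0946 and 0.0834 with BAY-850, which overlapped (log2 difference -0.16, exact p = 0.2, adjusted p = 0.286). For SLC7A5 the ratio was 0.290, 0.321 and 0.315 with DMSO and 0.362, 0.381 and 0.325 with BAY-850 in PA-1, without overlap (log2 difference 0.20, exact p = 0.1, adjusted p = 0.2). In SK-OV-3 it was 0.495, 0.539 and 0.555 and 0.537, 0.531 and 0.535, with the treated values inside the range of the controls (log2 difference 0.014, exact p = 1). Of the other light chains of SLC3A2, SLC7A8 and SLC7A7 had higher ratios (log2 differences 0.31 and 0.42) and SLC7A10 lower ones (-0.39) in PA-1, each without overlap at the smallest p, while SLC7A6 overlapped (0.042, exact p = 0.5). In SK-OV-3, SLC7A6 (-0.20, exact p = 0.2) and SLC7A7 (-0.34, exact p = 0.4) overlapped, and SLC7A8 and SLC7A10 had no count in at least 1 library and were given no ratio.

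**Figure D4:**
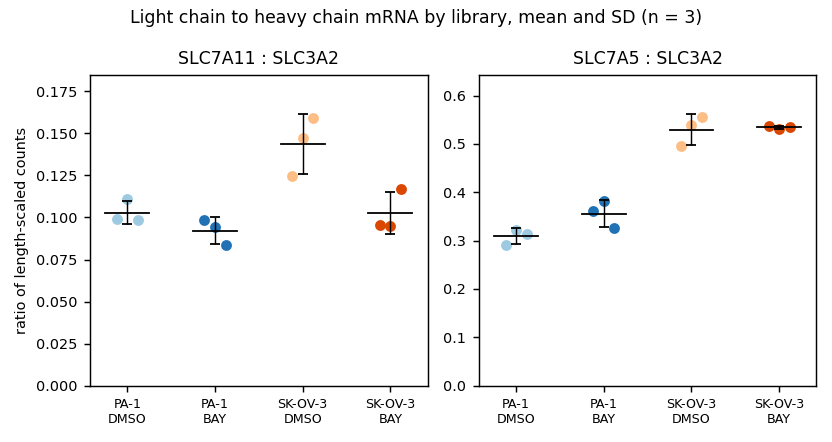
Ratio of SLC7A11 and of SLC7A5 to the heavy chain SLC3A2 in each library, in CPM per kb over CPM per kb, with the mean and SD of the 3 libraries of each group. In SK-OV-3 the SLC7A11 ratio is 0.125 to 0.159 with DMSO and 0.0949 to 0.117 with BAY-850.

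Of 32 genes listed as other plasma membrane amino acid transporters, 17 were tested in PA-1. There 2 rose and none fell (median log2 fold change 0.17), beside 4.65% and 2.48% of all genes tested. In SK-OV-3, 14 were tested, of which 1 rose and 2 fell (median -0.24), beside 10.8% and 9.56% of all genes tested. The SK-OV-3 counts were the same without replicate 3 of the treated cells. Under the alternatives, the number that rose in PA-1 ran from 0 to 2 and was below 2 in 7 of 17. The number that fell in SK-OV-3 ran from 1 to 3. By the rule on size, an adjusted p under 0.05 and at least 1.5-fold, SLC1A1 and SLC6A17 are named, both lower in SK-OV-3. SLC1A1, a glutamate carrier, was at 3.84 ± 0.202 CPM with DMSO against 2.22 ± 0.336 CPM with the inhibitor, a fall of 0.78 ± 0.24 (SE) on the log2 scale (adjusted p = 0.0416). Without replicate 3 of the treated cells its log2 fold change was -0.71, and the call was lost under 9 of 17 alternatives. The response of SLC1A1 differed from that in PA-1 (-1.24 ± 0.30 (SE), adjusted p = 0.0111). SLC6A17, a neutral amino acid carrier of neurons, was counted in this list although it is known from synaptic vesicles. In SK-OV-3, SLC6A17 was at 9.99 ± 1.39 CPM and 5.52 ± 0.793 CPM, a fall of 0.84 ± 0.17 (SE) (adjusted p = 0.00476, and a log2 fold change of -0.85 without that library). The 3 that rose were chosen for naming after their values were seen: SLC6A6, the taurine carrier (0.37 ± 0.076 (SE), adjusted p = 0.00957), and SLC7A8, a light chain of SLC3A2 (0.29 ± 0.075 (SE), adjusted p = 0.0302), in PA-1, and SLC7A2, a cationic amino acid carrier (0.27 ± 0.072 (SE), adjusted p = 0.0212), in SK-OV-3. With DMSO, 13 of 20 of these genes were lower and 5 higher in SK-OV-3 than in PA-1 (median -2.22), beside 40.2% and 40.1% of all genes tested. The filter on low counts keeps a gene that is expressed in only 1 line. With DMSO, SLC7A3 was at 56.3 CPM in PA-1 and 0.0506 CPM in SK-OV-3, and SLC6A17 at 0.145 and 9.99 CPM. The difference of such a gene follows from the filter, so these counts and the median are no more than a description.

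Of 7 lysosomal amino acid transporters, none of the 7 tested in PA-1 passed, with 7.13% of all genes passing there. In SK-OV-3, of 6 tested, 2 rose and 1 fell, beside 10.8% and 9.56% of all genes tested, with the same counts without replicate 3 of the treated cells. CTNS, which carries cystine out of the lysosome, was at 4.37 ± 0.366 CPM with DMSO against 7.08 ± 0.794 CPM with the inhibitor, a log2 fold change of 0.71 ± 0.17 (SE) (adjusted p = 0.0143; 0.65 and 0.0129 without that library). The CTNS call was lost without replicate 2 or 3 with DMSO or replicate 1 with BAY-850 (adjusted p of 0.0527 to 0.0664), and its response did not pass the test of a difference between the lines (0.56 ± 0.21 (SE), adjusted p = 0.0837). SLC36A1 (PAT1), a proton-coupled carrier of small neutral amino acids, was at 34.2 ± 1.49 CPM and 21.3 ± 2.23 CPM, a fall of 0.67 ± 0.089 (SE) (adjusted p = 3.28e-04; a log2 fold change of -0.60 without that library), and its response differed between the lines (-0.72 ± 0.12 (SE), adjusted p = 0.00128). PQLC2, the lysosomal carrier of cationic amino acids, was named after its value was seen (0.34 ± 0.10 (SE), adjusted p = 0.0426). The number of lysosomal carriers that rose in SK-OV-3 ran from 0 to 3 under the alternatives and was below 2 in 8 of 17.

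Of 15 targets of ATF4 that are not transporters, which were listed with earlier results of these libraries known, 11 rose and none fell in SK-OV-3 (median log2 fold change 0.59), beside 10.8% and 9.56% of all genes tested. The counts were the same without replicate 3 of the treated cells. The 4 that did not pass there, named after their values were seen, were ALDH1L2 (-0.52 ± 0.48 (SE)), ATF3 (-0.13 ± 0.061 (SE)), PPP1R15A (0.099 ± 0.045 (SE)) and PSPH (0.13 ± 0.17 (SE)). In PA-1 none rose and 2 fell (median -0.043), beside 4.65% and 2.48% of all genes tested, and the number that fell was 1 to 4 under the alternatives. For 11 of the 15 the response was higher in SK-OV-3 by the interaction test (median difference 0.75), beside 6.70% of all genes tested. CHAC1, an enzyme that degrades glutathione, was at 2.02 ± 0.463 CPM with DMSO against 12.4 ± 2.91 CPM with the inhibitor in SK-OV-3, a log2 fold change of 2.63 ± 0.23 (SE) (adjusted p = 1.50e-05). The transcriptional regulator NUPR1 (1.90 ± 0.11 (SE), adjusted p = 8.91e-07) and the pseudokinase TRIB3 (1.58 ± 0.078 (SE), adjusted p = 1.70e-07) were next. In PA-1, DDIT3, the stress factor CHOP, fell by 0.38 ± 0.062 (SE) (adjusted p = 0.00196) and PPP1R15A, a phosphatase subunit that restores translation, by 0.20 ± 0.051 (SE) (adjusted p = 0.0289) on the log2 scale. The DDIT3 call held under all 17 alternatives and that of PPP1R15A was lost under 6, with adjusted p of up to 0.136. With DMSO, 13 of the 15 were lower in SK-OV-3 than in PA-1 and 1 was higher (median -2.44), beside 40.2% and 40.1% of all genes tested. CHAC1, for example, was at 71.7 ± 0.873 CPM in PA-1 with DMSO, above its treated level in SK-OV-3. Whether ATF4 had a part in the transporters' responses was not tested.

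Genes that use the carried amino acids moved in both directions. Of 11 enzymes of cystine and glutathione metabolism, 4 rose and 3 fell in SK-OV-3 (median 0.18), beside 10.8% and 9.56% of all genes tested, and 1 rose in PA-1 (median 0.022), beside 4.65%. Without replicate 3 of the treated SK-OV-3 cells, 4 rose and 2 fell. CBS, the first enzyme that turns homocysteine towards cysteine, rose in both lines, by 0.28 ± 0.051 (SE) in PA-1 (adjusted p = 0.00516) and 1.29 ± 0.082 (SE) in SK-OV-3 (adjusted p = 1.33e-06). CTH, which completes that route, rose by 0.83 ± 0.18 (SE) in SK-OV-3 (adjusted p = 0.00684), where the glutathione-degrading enzyme CHAC2 fell by 0.57 ± 0.16 (SE) (adjusted p = 0.0235). The CHAC2 call was lost under 4 of 17 alternatives (adjusted p of up to 0.111), and that of CBS in PA-1 under 2 (up to 0.0621). Of 11 enzymes that use glutamine or glutamate, 3 rose and 2 fell in SK-OV-3 (median -0.034) and 2 rose in PA-1 (median 0.071), beside the same shares of all genes. In SK-OV-3 without that library, 2 rose and 2 fell. The alanine aminotransferase GPT2 rose in both lines, by 0.47 ± 0.068 (SE) (adjusted p = 7.20e-04) and 0.66 ± 0.080 (SE) (adjusted p = 1.87e-04). CAD, which starts pyrimidine synthesis from glutamine, rose by 0.36 ± 0.080 (SE) in PA-1 (adjusted p = 0.0154) and fell by 0.34 ± 0.068 (SE) in SK-OV-3 (adjusted p = 0.00488). In SK-OV-3, GFPT1, of hexosamine synthesis (0.38 ± 0.059 (SE), adjusted p = 0.00106), and the aspartate aminotransferase GOT1 (0.37 ± 0.11 (SE), adjusted p = 0.0390) rose. The calls of CAD in PA-1 (adjusted p of up to 0.110) and GOT1 in SK-OV-3 (up to 0.152) were each lost under 5 of 17 alternatives, GOT1 among them without replicate 3 of the treated cells (0.30, adjusted p = 0.0627).

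**Figure D5:**
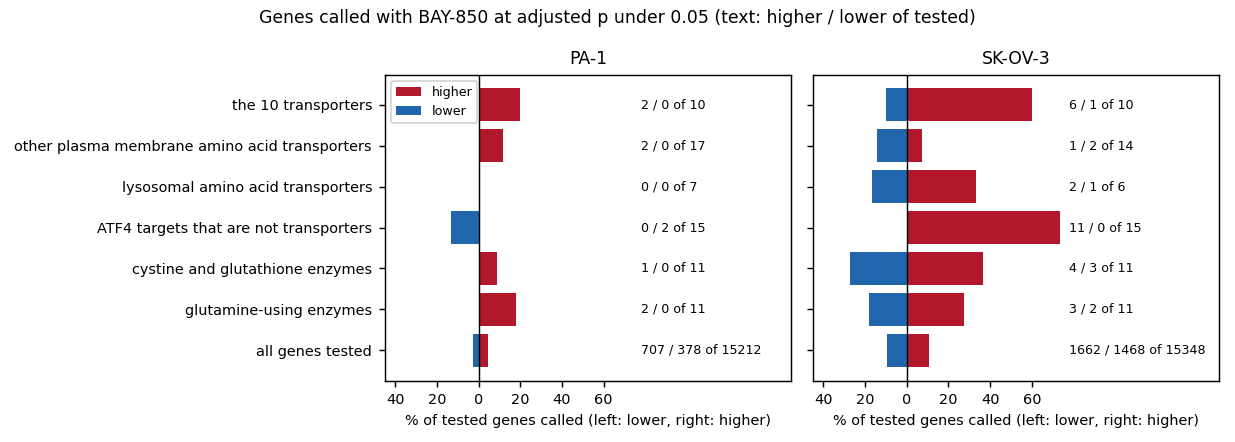
Share of the tested genes of each list that passed an adjusted p under 0.05 with BAY-850 against DMSO, higher (right) and lower (left), in each cell line, with the counts beside the bars and all genes tested as the last bar of each panel. In SK-OV-3, 6 of the 10 transporters and 11 of 15 ATF4 targets rose, beside 10.8% of all genes tested.

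As a description, the genes whose log2 CPM was most like that of SLC7A11 over the 12 libraries, among 13861 genes tested in both lines, were SGMS2 (Pearson r = 0.932), ICE2 (0.913), NIPBL-AS1 (0.913), SMARCAD1 (0.905) and ZNF605 (0.901). For SLC7A5 they were DHRS13 (0.987), SBF1 (0.981), TMBIM6 (0.980), ADAR (0.977) and DENND4B (0.977). No other member was among them. The 12 libraries fall into 4 groups and share their depth and composition across genes, so these values describe a common pattern over the groups.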

How the data were processed

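RNA was measured in 12 libraries, 3 from each of 4 groups of cells of established lines. The authors deposited RSEM expected counts by gene symbol, not normalized between libraries. Reads that match several genes are shared out among them, and 8.94% to 12.4% of a library's values were not whole. The submitters' processing notes name Bowtie2 2.1.0, RSEM 1.2.15 and hg38. The labels give oligo-dT purification and strand-specific libraries, and the series' design text gives ribosomal RNA depletion. Whether counting used strand is not given in the sources used here, and SLC6A9 and SLC7A11, for example, overlap genes on the other strand (CCDC24 and SLC7A11-AS1).

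The expected counts were rounded, scaled by TMM and tested with the quasi-likelihood test of edgeR 4.0.16 under R 4.3.3 within each line, without a block, and across the 12 libraries for the interaction, with Benjamini-Hochberg adjustment over all genes that passed edgeR's filter on low counts. Genes passed at an adjusted p under 0.05, and with 3 replicates per group the p-values measure only the spread between these samples. Replicates of a group differed beyond counting noise (chi-square over its degrees of freedom, 4.96 to 68.4), so all were counted. Levels are CPM, and the log2 scale of likeness used a prior count of 2. Exon lengths, positions and GC contents came from GENCODE release 29, which matched 23899 of 26475 symbols, 25 more by another symbol, and left 2551 unmatched. Total counts of 34544505 or more per library leave the lowest members (SLC43A1 and SLC6A9 in SK-OV-3) as the least precise.

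The members and lists were chosen with earlier results of these data known. Named were the members, other transporters past the threshold with at least 1.5-fold change and a mean of at least 1 CPM, up to 3 passing genes per other list and line, and the 5 genes most like SLC7A11 and SLC7A5. Exact permutation tests were two-sided. Alternatives were DESeq2 1.42.0, limma-voom (limma 3.58.1), RLE factors, scaling by library size or without ribosomal RNA genes, SLC7A5 summed with its copies, other filters, a replicate block, removal of each library's GC trend (loess span 0.5), all libraries in one fit, and leaving out each library. Gene length cancels in the log2 differences of the ratios, so ratios without length are not an alternative. The fits were tested on simulated data.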

Additional observations from a re-analysis of the deposited data

Results flagged for a closer look

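The response to BAY-850 differed between the lines for 3 transporters by the interaction test of edgeR's quasi-likelihood fit with Benjamini-Hochberg adjustment. The log2 response of SLC1A5 was higher in SK-OV-3 than in PA-1 by 0.81 (adjusted p = 2.81e-06), with all 3 treated SK-OV-3 libraries above all 3 controls and the PA-1 groups overlapping. The log2 response of SLC38A2 was higher by 0.37 (adjusted p = 0.00299), with the same pattern of overlap. The log2 response of SLC43A1 was higher by 1.01 (adjusted p = 0.0259), at 1.35 to 3.65 CPM in SK-OV-3. No explanation for these differences was tested, and cell line and culture medium cannot be told apart. Groups of 3 libraries are too small for a test of single outlying libraries.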

How the results depend on the processing

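Over the 10 transporters, 4 comparisons and their alternatives, 653 of 720 values kept their direction and their side of the threshold, 42 lost a call, 13 gained one and 12 changed sign. In SK-OV-3 the calls of SLC7A5, SLC1A5, SLC38A1 and SLC38A2 held under all 17 alternatives. In PA-1 the counts are near the threshold: the number of members that rose was 0 with scaling by library size only, without ribosomal RNA genes in the library size, with the GC trend removed and with all 12 libraries in one fit, and 1 with the replicate block, while DESeq2 called 1 member lower. All genes higher and lower in PA-1 numbered 235 and 231 with library size only, 393 and 166 with the GC trend removed and 469 and 214 in one fit, and lower ones 667 with DESeq2 and 588 with no filter. In SK-OV-3 no member was lower with library size only or with the GC trend removed. For the interaction, 5 members were higher with DESeq2, with a filter of 10 counts and with the GC trend removed, and 773 genes were lower with library size only. The causes were not tested.

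Leaving out 1 library at a time gave 0 to 2 members higher, 273 to 810 genes higher and 65 to 418 lower in PA-1; 4 to 6 members higher, 0 to 1 lower, 993 to 2050 genes higher and 788 to 1852 lower in SK-OV-3; 2 to 4 members higher, 826 to 1287 genes higher and 960 to 1320 lower for the interaction; and 2 to 4 members higher for the lines with DMSO.

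These log2 values changed sign, all from values that had not passed. With library size only, SLC38A2 (-0.0083), SLC36A1 (-0.0042) and CHAC1 (-0.0089) did so in PA-1, and SLC1A4 (0.022) and SLC1A1 (0.016) between the lines with DMSO, where they were 0.016 and 0.0058 without ribosomal RNA genes in the library size. With the GC trend removed, SLC1A5 (-0.046), SLC36A1 (-0.0059), CHAC1 (-0.089) and GFPT1 (0.086) did so in PA-1 and SLC7A1 (0.052) in the interaction. When 1 library was left out, the PA-1 values ran from -0.052 (without DMSO replicate 2) to 0.016 (without DMSO replicate 1) for SLC3A2, which was 0.011 without BAY-850 replicate 2, from -0.0040 (DMSO 1) to 0.049 (DMSO 2) for SLC38A2, from -0.14 (DMSO 3) to 0.071 (DMSO 1) for SLC43A1, from -0.012 (BAY-850 3) to 0.072 (BAY-850 1) for CHAC1, from -0.12 (BAY-850 3) to 0.012 (BAY-850 1) for TRIB3 and from -0.055 (DMSO 3) to 0.033 (DMSO 1) for GFPT1, which was 0.0058 without BAY-850 replicate 3. SLC6A9 ran from -0.057 (SK-OV-3 BAY-850 3) to 0.37 (SK-OV-3 BAY-850 2) in the interaction. Between the lines, SLC1A4 ran from -0.073 (PA-1 2) to 0.037 (PA-1 3), at 0.0094 without SK-OV-3 replicate 3, and SLC1A1 from -0.12 (PA-1 1) to 0.12 (PA-1 2). The log2 difference of the SLC7A5 ratio in SK-OV-3 ran from -0.034 (DMSO 1) to 0.049 (DMSO 3).

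The replicate numbers did not pair the libraries (correlations of same-numbered deviations between -0.0277 and 0.00417). With the replicate block, SLC7A5 in PA-1 (0.19, adjusted p = 0.0737) and SLC43A1 in SK-OV-3 (1.00, adjusted p = 0.0582) and in the interaction (1.02, adjusted p = 0.0539) did not pass. No block was fitted between the lines with DMSO.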
